A study of Mus musculus with 2 samples.

Results

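Matrix metalloproteinases (MMPs) are zinc-dependent enzymes that cut collagens, laminins and other proteins around cells, and the tissue inhibitors of metalloproteinases (TIMPs) block their active sites. Most MMPs are secreted as inactive precursors that other proteases switch on, so an mRNA level is a measure of supply and not of activity. In the developing prostate, buds of epithelium grow out of the urogenital sinus (UGS) into surrounding mesenchyme, and both compartments can make these enzymes.

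The 10 genes described here were chosen by name, 7 MMPs (Mmp2, Mmp3, Mmp9, Mmp10, Mmp11, Mmp13 and Mmp14) and 3 inhibitors (Timp1, Timp2 and Timp3). They were 10 of 27827 gene names on an Agilent whole mouse array and were measured by 13 of its 41174 probes. Mmp9, Mmp14 and Timp1 had 2 probes each. All 13 probes were well above background in each of the 4 RNAs of the study, so no member was lost to a filter on low values, and they were among 22731 probes that were tested.

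The RNAs came from prostaspheres, which are spheres that prostate epithelial cells form in Matrigel. Per the labels, cells on the C57/Bl6J background were taken from UGS epithelium at 16 days post conception, whereas the methods describe this assay with adult prostate tissue. All cultures were given dihydrotestosterone for 6 days and then 5 µM tamoxifen (TAM) or vehicle for 6 days. ER-Sox9flox/flox cells (ERCre+/+Sox9flox/flox in the labels) carry floxed Sox9 and a Cre recombinase at the Rosa26 locus that TAM activates in any cell type. On the genotype array, wild type cells given TAM (Cy5) were compared with ER-Sox9flox/flox cells given TAM (Cy3). On the treatment array, ER-Sox9flox/flox cells given vehicle (Cy5) were compared with ER-Sox9flox/flox cells given TAM (Cy3). The genotype array asks what the absence of Sox9 changes when both RNAs have met TAM, and the treatment array asks the same within 1 genotype, where TAM itself also differs. Each RNA was 1 culture on 1 array, dyes were not swapped, and the labels of the wild type name no Cre. Dye, genotype and culture therefore cannot be told apart within the genotype array, nor dye, TAM and culture within the treatment array. Both Sox9-expressing RNAs were Cy5 and both Sox9-deleted RNAs Cy3, so dye and Sox9 status cannot be told apart across the arrays either. Log2 ratios are given with the Sox9-expressing culture as numerator and the Sox9-deleted culture as denominator. The source names call the Cy5 RNA SOX9 and the Cy3 RNA control. If SOX9 there meant the deleted gene, every sign would be the opposite, and the brightest Sox9 probe would then be higher in the RNA without Sox9.

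Sox9 served as the check of the labels. The brightest of its 3 probes had a normalized brightness, in arbitrary fluorescence units, of 1634 in wild type cells with TAM, 1198 in ER-Sox9flox/flox cells with vehicle, and 253 and 232 in the 2 Sox9-deleted cultures. Its log2 ratios were 2.69 and 2.37. Another probe had 1.18 and 1.27, and the third was lower (-0.997 and -1.22). The prostate secretory marker Pbsn was not well above background in any of the 4 RNAs.

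Mmp3, Mmp10 and Mmp13 lie in 1 block of 10 neighbouring Mmp genes on mouse chromosome 9 in the RefSeq annotation of GRCm38.p6. The 100 bases before the start of each are printed because the 3 share 2 sequence features that the choice of genes did not use. In all 3, both Sox9-expressing cultures had less signal than their Sox9-deleted partners, which was known when they were picked for printing. Mmp2, Mmp9 and Timp1, which are not printed, also had less signal in both Sox9-expressing cultures. Capitals mark an AP-1 motif (TGAGTCA, which reads TGACTCA on the opposite strand) and a TATA box (TATAAA), and all 3 are on the plus strand.
Mmp13, chr9:7272414-7272513: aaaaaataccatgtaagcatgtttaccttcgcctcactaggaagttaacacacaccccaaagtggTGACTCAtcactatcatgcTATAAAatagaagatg
Mmp3, chr9:7445722-7445821: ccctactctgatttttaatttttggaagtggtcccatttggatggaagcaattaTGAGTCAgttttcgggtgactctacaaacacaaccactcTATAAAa
Mmp10, chr9:7502242-7502341: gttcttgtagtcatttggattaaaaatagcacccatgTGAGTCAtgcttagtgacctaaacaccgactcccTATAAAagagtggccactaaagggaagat

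The AP-1 motif began 35 bases before the annotated start in Mmp13, 46 in Mmp3 and 63 in Mmp10, and the TATA box followed it at 16, 7 and 29 bases before the start. Windows of 300 bases (250 before and 50 after the start) were given by RefSeq for 8 of the 10 members, all but Mmp2 and Mmp9. Of these 8, only the 3 on chromosome 9 held either motif. Whether the other genes of that block hold these motifs was not looked at. The Timp1 window held neither, and Timp1 also had negative log2 ratios on both arrays. Over all 32851 windows, 5.20% held the AP-1 motif on either strand, 13.6% held TATAAA and 0.941% held both. The letters AGGAAG, a core that ETS factors bind, were in 5 of the 8 windows (Mmp3, Mmp13, Mmp14, Timp1 and Timp3) and in 35.4% of all windows. The letters AACAAT, a core that Sox factors bind, were in the Timp1 window and in 10.7% of all windows. These are matches of letters, and no binding was measured.

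**Figure D1:**
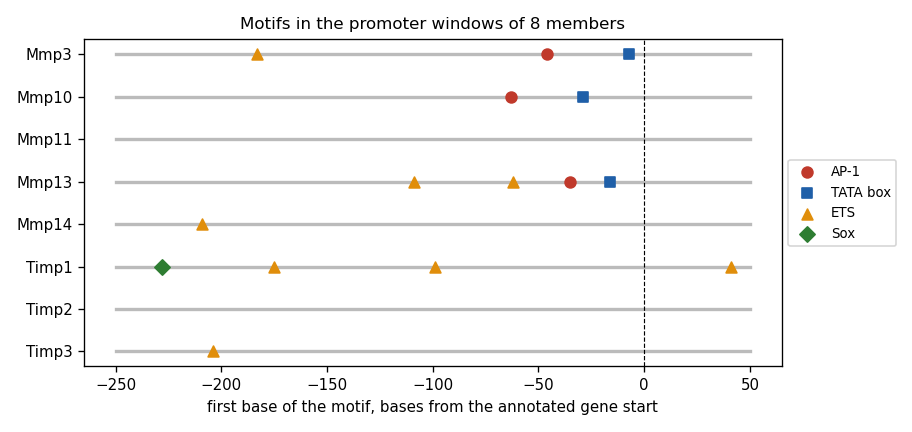
Motifs in the promoter windows of 8 members. The horizontal axis gives the first base of each motif in bases from the annotated gene start (dashed line), and each grey line is 1 window of 300 bases. AP-1 (circles) and TATA box (squares) matches are seen in Mmp3, Mmp10 and Mmp13 and in none of the other 5 windows, while ETS matches (triangles) are spread over 5 genes and the Sox match (diamond) is in Timp1.

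The members had log2 ratios of both signs. By the brightest probe of each gene, Mmp2, Mmp3, Mmp9, Mmp10, Mmp13 and Timp1 had negative log2 ratios on each array (6 of 10), that is, less signal in the Sox9-expressing culture, and Mmp11, Mmp14, Timp2 and Timp3 had positive ones on each (4 of 10), Mmp14 by the brighter of 2 probes that disagreed. Among the genes with positive ratios, Timp2 (0.043) and Timp3 (0.10) had only small ones on the genotype array. By probe, 8 of 13 were lower on both arrays, against 32.6% of all tested probes, and 4 were higher on both, against 34.6%. The median log2 ratio of the 13 probes was -0.64 on the genotype array and -0.27 on the treatment array, where the medians of all tested probes were -0.0018 and 0.011. On the genotype array 3 of 13 probes (Mmp13, Mmp2 and Mmp3) were at least 2-fold lower, against 0.84% of all tested probes, and 0 were at least 2-fold higher, against 0.471%. On the treatment array 0 were at least 2-fold lower, against 0.326%, and 1 (Mmp11) was at least 2-fold higher, against 1.35%. None of the 13 was past 2-fold in the same direction on both arrays, which held for 0.128% of all probes downward and 0.29% upward.

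A single array allows no test, so the mean of both arrays was tested against 0 with limma, which asks only for what the arrays have in common. With Benjamini-Hochberg adjustment over all 22731 probes, 0 of the 13 member probes passed at 0.05 (lowest adjusted p = 0.109, Mmp10), as did only 0.0088% of all probes. At an unadjusted limma p under 0.05, 7 member probes were lower (8.05% of all probes) and 1 was higher (9.5% of all probes). By the methods' t-test 0 passed after adjustment and 2 had an unadjusted p under 0.05. The directions on the treatment array rested on the loess step. As an alternative, each array was centred on the median of all its spots other than controls. The median of the tested probes on the treatment array was then 0.38 (0.011 after loess), and only the 2 Mmp9 probes stayed below 0. Set against that median of the tested probes, 6 of 13 were below it in that setting and 8 of 13 after loess.

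**Figure D2:**
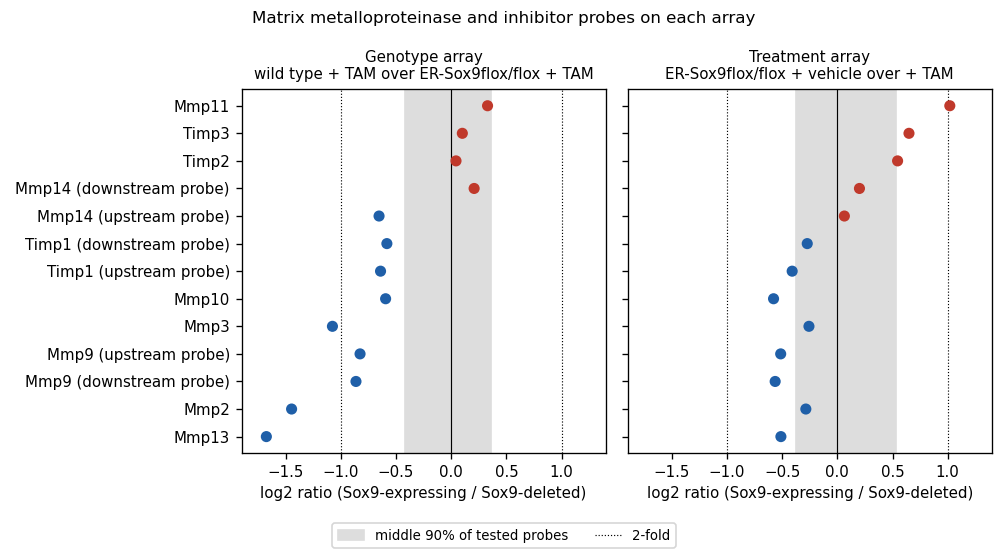
Log2 ratio of each probe on the genotype array (left) and the treatment array (right), as Sox9-expressing over Sox9-deleted RNA, 1 array each. Grey bands hold the middle 90% of all tested probes and dotted lines mark 2-fold. Mmp13, Mmp2 and Mmp3 lie past the 2-fold line on the genotype array only, and Mmp11 on the treatment array only.

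Mmp13 is collagenase-3, which cuts fibrillar collagen, and after loess it had the most negative ratio of the members on the genotype array and the most negative mean. On the treatment array Mmp10 and both Mmp9 probes were more negative. Its brightness was 417 in wild type cells with TAM, 834 in ER-Sox9flox/flox cells with vehicle, and 1331 and 1190 in the Sox9-deleted cultures of the genotype and treatment arrays. Both Sox9-expressing cultures were thus below both Sox9-deleted ones, and the wild type was the lowest. The log2 ratio was -1.68 on the genotype array (3.19-fold lower) and -0.51 on the treatment array (1.43-fold lower), with a mean of -1.09 ± 0.82 (SD, n = 2 arrays) and an adjusted p of 0.225 by limma. On the genotype array only 0.154% of tested probes had a lower ratio, and on the treatment array 2.27%.

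Mmp3 and Mmp10 are stromelysins, which cut proteoglycans, laminin and fibronectin and can switch on other MMP precursors. Mmp3 had a brightness of 13843 in wild type cells with TAM, 19606 with vehicle, and 29200 and 23434 in the Sox9-deleted cultures. Its log2 ratios were -1.08 and -0.26 (mean -0.67 ± 0.58, SD, n = 2 arrays, adjusted p = 0.269 by limma). The 2 Sox9-deleted cultures of Mmp3 differed by 0.32 on the log2 scale, more than any other member and more than 95% of tested probes did (0.218), and this is larger than its ratio on the treatment array.

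Mmp10 showed the closest agreement in size between the arrays among the members with a negative ratio. Its brightness was 2716 in wild type cells with TAM and 2754 in cells with vehicle, against 4102 and 4112 in the Sox9-deleted cultures. The cultures thus formed 2 separate pairs, with a gap between the pairs far wider than the distance within either. Each pair also shares a dye, Cy5 or Cy3, so dye and Sox9 status cannot be told apart in this gap. The log2 ratios were -0.59 and -0.58, or 1.51-fold and 1.49-fold lower (mean -0.59 ± 0.012, SD, n = 2 arrays), with an unadjusted limma p of 0.0016 and an adjusted p of 0.109. Of all tested probes, 2.74% were lower on the genotype array and 1.73% on the treatment array. With median centring the treatment ratio was 0.048, which relative to the median of the tested probes on that array was -0.33.

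The gelatinases Mmp2 and Mmp9 cut denatured collagen and the type IV collagen of basement membranes. Mmp2 had a brightness of 1482 in wild type cells with TAM, 2904 with vehicle, and 4042 and 3540 in the Sox9-deleted cultures. Its log2 ratio was -1.45 on the genotype array, 2.73-fold lower, and -0.29 on the treatment array, 1.22-fold lower (mean -0.87 ± 0.82, SD, n = 2 arrays, adjusted p = 0.285 by limma). The Sox9-expressing cultures were both below the Sox9-deleted ones, but differed from each other by -0.97 on the log2 scale (wild type minus vehicle).

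Mmp9 was the dimmest member, and its 2 probes gave like values. The probe at chr2:164780620-164780679 (mm9) was spotted 10 times on each array, with an SD between spots of 0.077 and 0.061. Its brightness was 157 in wild type cells with TAM, 180 with vehicle, and 285 and 266 in the Sox9-deleted cultures. Its log2 ratios were -0.86 and -0.56 (mean -0.71 ± 0.21, SD, n = 2 arrays, adjusted p = 0.131 by limma). The probe at chr2:164780303-164780362 had brightnesses of 158, 163, 279 and 233 in the same order. Its log2 ratios were -0.83 and -0.51 (adjusted p = 0.139 by limma). Mmp9 was also the member whose size moved most with background correction. Without background subtraction the genotype ratios of these probes were -1.37 and -1.29, and in the scanner software's processed signals -1.89 and -1.80, past 2-fold in both. With a normexp offset of 10 in place of 50 they were -1.05 and -1.01, so the size of the Mmp9 difference is uncertain.

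Mmp11, stromelysin-3, is activated inside the cell by furin and is best known from stroma next to tumours. It had a brightness of 1252 in wild type cells with TAM, 1843 with vehicle, and 997 and 909 in the Sox9-deleted cultures. Both Sox9-expressing cultures were above both deleted ones. The log2 ratio was 0.33 on the genotype array and 1.02 on the treatment array, where it was 2.03-fold higher and where 1.28% of tested probes were higher still (mean 0.67 ± 0.49, SD, n = 2 arrays, adjusted p = 0.227 by limma). With median centring the ratios were 0.375 and 1.58, and the adjusted p was 0.0201 by limma. The median of the tested probes on the treatment array was then 0.38, and relative to it the Mmp11 ratio was 1.20. In that setting 522 of all tested probes passed, against 2 after loess. The prior degrees of freedom of that fit were infinite, so a probe's own spread between the arrays did not enter its p.

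Mmp14 is the membrane-type MMP that, together with Timp2, activates the Mmp2 precursor at the cell surface. Its 2 probes did not give the same result. The brighter probe, at chr14:55059969-55060028 (mm9), had brightnesses of 6079 in wild type cells with TAM, 5920 with vehicle, and 5265 and 5152 in the Sox9-deleted cultures, which gave log2 ratios of 0.21 and 0.20 (mean 0.20 ± 0.0050, SD, n = 2 arrays, adjusted p = 0.286 by limma). The dimmer probe lies 1194 bases upstream in the genome, at chr14:55058775-55058834, and had brightnesses of 565, 878, 889 and 840 in that order. Its log2 ratios were -0.65 and 0.064 (adjusted p = 0.494 by limma), so the wild type stood apart from the 3 other RNAs. No direction is given for Mmp14 as a gene.

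The inhibitors also split. Timp1, which blocks most secreted MMPs and binds the Mmp9 precursor, was lower in Sox9-expressing RNA by both probes. Its brighter probe, at chrX:20451675-20451733 (mm9), had brightnesses of 35945 in wild type cells with TAM, 42687 with vehicle, and 53858 and 51574 in the Sox9-deleted cultures. The log2 ratios of this probe were -0.58 and -0.27, and those of the probe at chrX:20449905-20449964 were -0.64 and -0.41. By limma the adjusted p was 0.203 and 0.154, and the unadjusted p 0.0182 and 0.0058. In both probes the 2 Sox9-expressing cultures lay below the 2 Sox9-deleted ones. With median centring the mean ratio of the brighter probe turned to 0.14.

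Timp2, which takes part in the activation of the Mmp2 precursor as well as its inhibition, and Timp3, which is bound to the matrix and also inhibits Adam17, had a different pattern. Timp2 had a brightness of 16371 in wild type cells with TAM, 23855 with vehicle, and 15888 and 16338 in the Sox9-deleted cultures. Timp3 had 2526, 3939, 2356 and 2511 in the same order. For both genes the culture with vehicle stood above the 3 RNAs that had met TAM, which lay close together. The log2 ratios were 0.043 and 0.55 for Timp2 (adjusted p = 0.389 by limma) and 0.10 and 0.65 for Timp3 (adjusted p = 0.333 by limma). On the treatment array 4.79% of tested probes were higher than Timp2 and 3.43% were higher than Timp3.

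The 2 Cy3 channels held 2 cultures of 1 label, so their difference describes the spread between Sox9-deleted cultures, and the 2 Cy5 channels compare the wild type with the vehicle culture. In 12 of the 13 probes the Cy5 difference was the larger in size, the exception being the single-spot Mmp9 probe. The same held for 69.7% of all tested probes. Across all tested probes the median size of the difference was 0.068 between the Sox9-deleted cultures and 0.129 between the Sox9-expressing ones. Wild type minus vehicle was -1.002 in Mmp13 and -0.97 in Mmp2 on the log2 scale, and in Mmp11, Timp2, Timp3, Mmp3 and the upstream Mmp14 probe it ranged from -0.50 to -0.64. For Mmp10 this difference was -0.020. The Sox9-expressing cultures differed in both genotype and TAM, which cannot be told apart here.

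**Figure D3:**
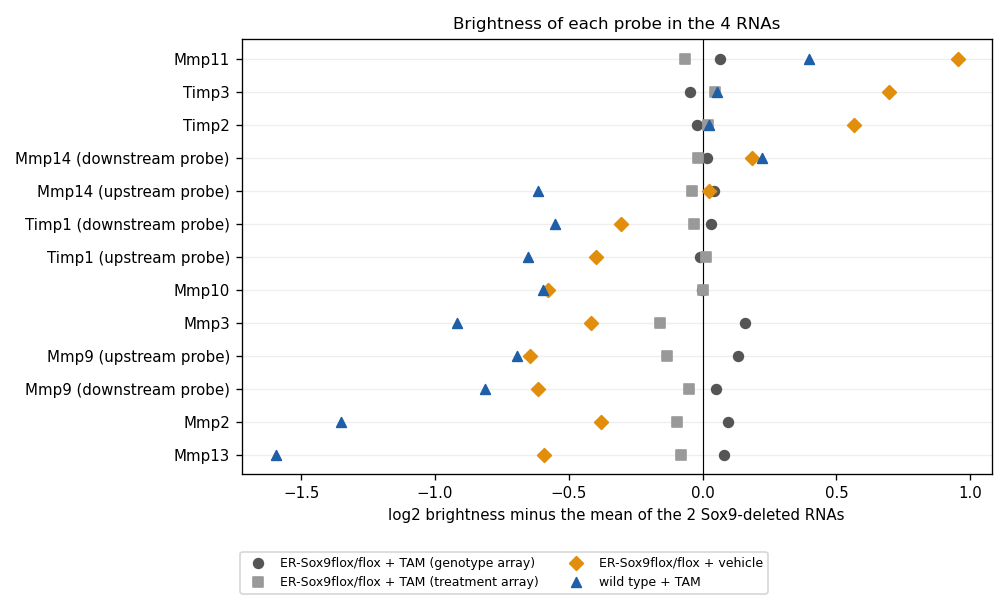
Log2 brightness of each probe in the 4 RNAs, minus the mean of the 2 Sox9-deleted RNAs (grey circle and square). Each symbol is 1 culture. In Mmp10 the wild type (triangle) and the vehicle culture (diamond) coincide below the deleted pair, in Mmp13 and Mmp2 the wild type is far below the vehicle culture, and in Timp2 and Timp3 only the vehicle culture stands away from 0.

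Markers of other cells moved between the arrays, and their part in the results was not tested. Of 10 fibroblast and stromal markers, all well above background, 8 were lower on the genotype array and higher on the treatment array, against 17.9% of all tested probes. Col3a1 had log2 ratios of -1.63 and 1.13 and Col1a1 of -1.26 and 1.03. The other 2 markers went differently, Dcn with -0.77 and -0.14, both negative as in the lower members, and Fn1 with 0.44 and -0.0087. The summed brightness of the 10 was 40350 in wild type cells with TAM, 87702 with vehicle, and 62637 and 56189 in the Sox9-deleted cultures, 2.17 times as much with vehicle as in the wild type. In bulk RNA, fewer cells of a type and less RNA per cell cannot be told apart. The 6 lower members were below 0 on both arrays after loess. With median centring all but Mmp9 were below 0 on the genotype array and above 0 on the treatment array. After loess 8 of the markers had these signs. The ratios of the markers with median centring are not given here, so members and markers are not compared in that setting. In that setting, however, the median of all tested probes on the treatment array was itself 0.38. Relative to it, Mmp13 (-0.35), Mmp10 (-0.33) and Mmp2 (-0.042) were below and Mmp3 (0.17) was above. The 2 Timp1 probes were at 0.24 and -0.094. All 6 were dimmest in the wild type and next dimmest in the vehicle culture. Wild type minus vehicle, on the log2 scale, ranged from -1.002 (Mmp13) to -0.020 (Mmp10) among them and from -2.41 (Col3a1) to 0.37 (Fn1) among the 10 stromal markers.

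Of 9 macrophage and neutrophil markers, 5 (Ptprc, Emr1, Itgam, Mpo and Elane) were not well above background in any RNA. Cd68 was lower on both arrays (-0.69 and -0.77), as were Cd14 (-1.04 and -0.047) and Lyz2 (-0.90 and -0.15), whereas Csf1r, the fourth tested marker, had 0.030 and -0.12. The summed brightness of the 9 was 3857 in wild type cells with TAM, 6575 with vehicle, and 6896 and 7239 in the Sox9-deleted cultures. Of 5 endothelial markers, Pecam1 and Tek were not well above background in any RNA, and the sum ranged from 1102 to 1635. The others were well above background in all 4 RNAs. Cd34 had -0.21 and 0.74, Kdr 0.084 and -0.095, and Cdh5 -0.12 and -0.16. The summed brightness of 8 epithelial markers was 448823, 380713, 274867 and 314371 in the same order of RNAs, and the basal markers Krt5, Krt14 and Trp63 were at least 2-fold higher on both arrays. Krt18 (-0.28 and -1.01) and Cdh1 (-0.31 and -0.32) were lower on both, Krt8 had 0.013 and -0.74, and the other 2 were higher on both by less than 2-fold.

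**Figure D4:**
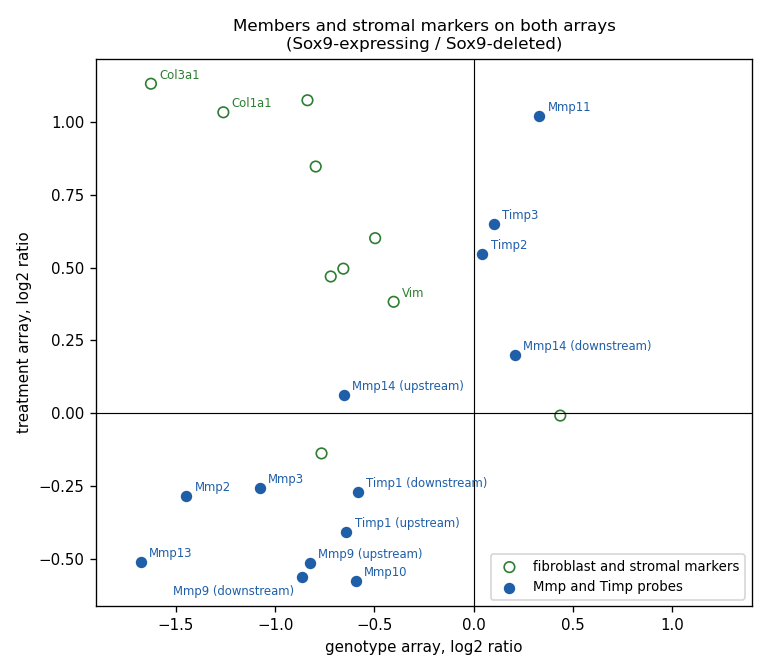
Log2 ratio on the genotype array (horizontal) and on the treatment array (vertical) for the 13 member probes (filled) and 10 fibroblast and stromal markers (open), by brightest probe. Most stromal markers lie in the upper left, with opposite signs on the 2 arrays, whereas 8 member probes lie in the lower left.

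Other genes of the same system were read by the brightest probe of each. Of 16 other Mmp genes, 14 were on the array by name and 8 were tested. Of these 8, 5 were lower on both arrays and 0 higher on both, against 32.6% and 34.6% of all tested probes. Mmp15 (-0.40 and -0.30), Mmp19 (-0.47 and -0.15) and Mmp8 (-0.20 and -0.25) had the most negative means. In the chromosome 9 block 6 genes were tested, and 5 of them (Mmp13, Mmp12, Mmp3, Mmp10 and Mmp8) had negative ratios on both arrays, that of Mmp12 being only -0.066 and -0.057. The other was Mmp7, matrilysin, at the end of the block, with -0.40 and 1.14. Mmp7 and Mmp23 (-0.62 and 0.92) were named after their values were seen.

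Plasminogen activation produces plasmin, an activator of Mmp3 and other MMP precursors. Of 9 genes listed for it, 7 were tested, and 6 of these were lower on both arrays, against 32.6% of all tested probes. Among the 6, Plau was only at -0.10 and -0.15. The exception was Furin, a convertase that activates Mmp11 and Mmp14. Plg, plasminogen itself, was not well above background in any RNA, and Serpinf2 was not tested either. By the mean of both arrays the protease Plat was lowest (-1.27 and -0.85, adjusted p = 0.108 by limma), followed by the inhibitor Serpinb2 (-0.30 and -1.60) and the urokinase receptor Plaur (-0.50 and -0.96). Both activators and inhibitors of the system were among the 6, and the median log2 ratio of the list was -0.30 and -0.54. Of 7 tested inhibitors and inducers of MMPs other than the members, 5 were lower on the genotype array and higher on the treatment array. This held for 17.9% of all tested probes. Thbs1 (0.63 and 0.91) and Lcn2 (0.042 and 0.077) were higher on both arrays.

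Of 9 tested Adam sheddases, 4 were higher and 1 was lower on both arrays, against 34.6% and 32.6% of all tested probes. Adam33 was at 0.019 and 1.02, Adam8 at -0.46 and -0.53, and Adam10, which cleaves Notch, at 0.34 and 0.53. Of 8 tested Adamts proteases, Adamts1, an aggrecan-cutting enzyme, was 2-fold or more higher on both arrays (1.03 and 1.52, adjusted p = 0.105 by limma), and it was the sole gene of the related lists to pass that rule after loess. In the scanner software's processed signals Adamts9 passed it too (1.54 and 1.35, against 0.53 and 0.74 after loess). Another 5 of the 8 were lower on the genotype array and higher on the treatment array, against 17.9% of all tested probes. Among them were Adamts5 (-0.66 and 1.66) and Adamts2 (-1.35 and 0.14), which were named after their values were seen. Among 12 AP-1 and ETS factors, 8 were lower and 3 higher on both arrays, against 32.6% and 34.6% of all tested probes. Jund (-0.67 and -0.84), Fosl1 (-0.33 and -0.82) and Etv4 (-0.42 and -0.50) had the most negative means. The 3 higher on both arrays were Ets1 (0.32 and 0.51), Fosl2 (0.22 and 0.47) and Jun (0.22 and 0.36). No gene of these lists had an adjusted p by limma under 0.05. At an unadjusted limma p under 0.05, 6 were lower and 3 higher among the AP-1 and ETS factors and 4 lower among the plasminogen genes. Of all tested probes, 8.05% were lower and 9.5% higher by that rule.

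**Figure D5:**
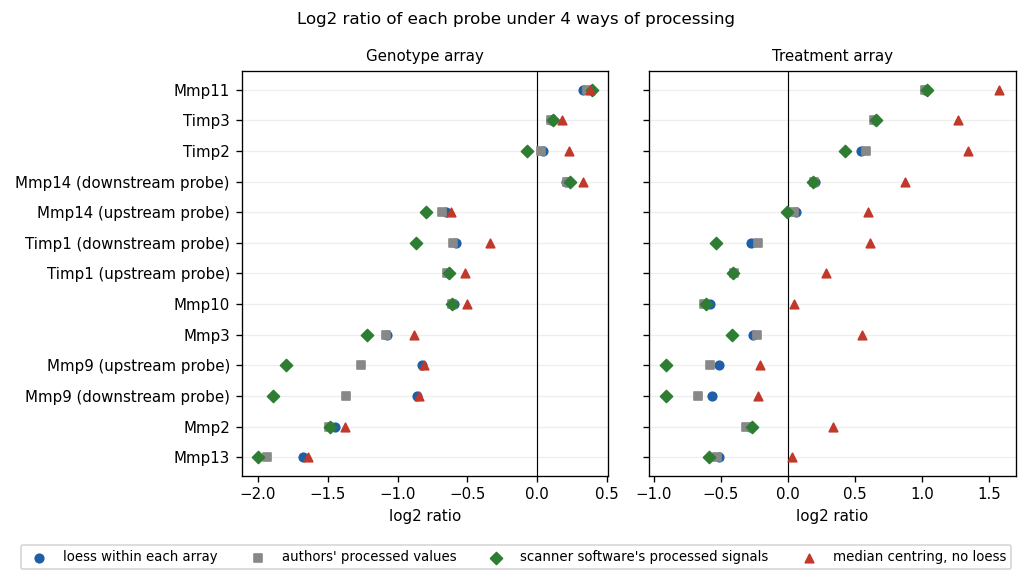
Log2 ratio of each probe on the genotype array (left) and the treatment array (right) under 4 ways of processing the same 2 arrays. Loess, the authors' processed values and the scanner software's signals differ most for Mmp9 and also differ for Mmp13 on the genotype array and the downstream Timp1 probe on both, and median centring without loess (triangles) moves every probe upward on the treatment array.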

How the data were processed

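RNA from 4 prostasphere cultures was hybridized to 2 two-colour arrays of 1 slide. The authors' scanner software deposited mean and local background intensities, processed intensities and a log10 ratio of Cy5 over Cy3. The authors also deposited a table of log2 values, whose scale and direction were read from its slope on the log10 ratios (3.12 and 3.14) and whose normalization steps are not given in the sources used here (column medians -0.0099 and -0.0034). The submitters' processing notes name limma. Probe coordinates are of mm9, per the file headers.

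Intensities were background-corrected with normexp (offset 50) and normalized by loess within each array with limma 3.58.1 (R 4.3.3). Values exclude control and outlier spots and are means over the spots of a probe. Tested probes were well above background in Cy5 or in Cy3 on both arrays. The mean of both arrays was tested against 0 with lmFit and eBayes (2-sided, 1 residual degree of freedom) and adjusted over 22731 probes. The code was tested on simulated data. Brightness was taken after Aquantile normalization between arrays. Each RNA is 1 culture. The limma p-values rest on the spread between these 2 arrays, combined with that of all tested probes (2.80 prior degrees of freedom). The arrays are different comparisons and not replicates of each other, and their number limits the precision.

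Members, gene lists, motifs and tests were chosen with earlier results of these data known. Named genes were all members, Sox9, and from each list those past 2-fold in the same direction on both arrays, otherwise up to 3 with the largest mean and the same sign, and genes a result turned on. Alternatives were another offset, no background subtraction, median centring, the processed signals, the authors' table, 2 other filters, single arrays and the methods' t-test.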

Additional observations from a re-analysis of the deposited data

Results flagged for a closer look

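The log2 ratios of the upstream Mmp14 probe had opposite signs on the genotype and treatment arrays (-0.65 and 0.064, a difference of -0.72), whereas the downstream Mmp14 probe had 0.21 and 0.20. Opposite signs were also seen for Mmp7 (difference -1.54), Mmp23 (-1.54), Col3a1 (-2.76), Col1a1 (-2.29), Adamts5 (-2.32) and Adamts2 (-1.48), and the other way round for Fn1 (0.44), Krt8 (0.75) and Csf1r (0.15). With 1 array in each comparison these differences were not tested.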

How the results depend on the processing

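The median over the 13 probes of the mean log2 ratio was -0.53 and lay between -0.64 and -0.27 when 1 array was left out, and it was -0.12 with median centring. The number of member probes at least 2-fold different on the genotype array was 3, and it was 5 with an offset of 10, without background subtraction, with the scanner software's processed signals and with the authors' processed values, the added probes being those of Mmp9, and 2 with median centring, where Mmp3 was at -0.88. On the treatment array it was 1, and 3 with median centring (Mmp11, Timp2 and Timp3), where 1 member probe (Mmp11) also passed limma's adjusted threshold and 522 of all probes did, against 2 after loess. The mean of the brighter Timp1 probe reversed to 0.14 with median centring. In the scanner software's processed signals Timp2 was at -0.070 on the genotype array and the upstream Mmp14 probe at -0.0062 on the treatment array. The cause of these changes was not tested. The limma count over all probes was 0 with an offset of 10, without background subtraction and with processed signals, 68 with the authors' values and 21 without a filter. In an alternative chosen after seeing the data, 2 related genes (Adamts1 and Adamts9) passed 2-fold on both arrays with the processed signals, against 1 after loess. No member passed 2-fold in the same direction on both arrays in any of these settings. Of the single-probe values, 235 of 273 kept their direction and side of the threshold or moved by less than the spread between the arrays. The 2 other filters leave the ratios unchanged, so part of this count was fixed in advance. It also includes changes of sign where the arrays differ widely. With median centring the treatment ratio of Mmp2 went from -0.29 to 0.34 and that of Mmp13 from -0.51 to 0.029. Leaving out an array leaves no test and no count for both arrays. No paired analysis was possible because each comparison is 1 array, on which its RNAs are already set against each other.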
